A study of Mus musculus with 8 samples.

Results

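Immediate early genes are transcribed within minutes of a stimulus without new protein synthesis, and 10 of them were followed here across 8 mouse uteri: Fos, Fosb, Jun, Junb, Egr1, Egr2, Atf3, Nr4a1, Ier2 and Dusp1. They were chosen by gene symbol, and all 10 were found among the 19505 genes of the array, each on 1 probe set. Each gene stood above the 50th percentile of mean expression on this array. Of the 10, Dusp1 encodes a phosphatase and Ier2 a nuclear regulator, so the set comprises transcription factors and 2 companions.

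Whole uterus was collected from wildtype C57BL/6J females on the morning of day 4.5 of pseudopregnancy, the state that follows mating to a vasectomised male, in which the uterus is under the hormones of early pregnancy but holds no embryo. The exposed group comprised 4 mice that inhaled electronic cigarette aerosol in a whole-body chamber, from a liquid of propylene glycol and vegetable glycerin (55 parts to 45) with 24 mg/mL nicotine and no flavouring. Aerosol was given for 3 h a day at 2 puffs per minute of about 2 s each, with the atomizer at 245 °C, on 5 days a week during 4 weeks before mating and then daily until collection. The sham group comprised 4 mice kept in room air, so nicotine, the carrier liquid and its heating were not varied separately. Both groups were mated to vasectomised males and kept on a 12 h light cycle, and the sources used here state neither the age of the mice nor the time between the last exposure and collection. The question behind the design is how aerosol inhalation affects the uterus when it becomes receptive to an embryo.

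The AP-1 factors are dimers of FOS family and JUN family proteins that bind DNA through a leucine zipper. EGR proteins are zinc finger factors, and NR4A1 is an orphan nuclear receptor. Their genes are switched on by MAP kinase and calcium signalling, through serum response factor and its ternary complex partners and through CREB, and the proteins then drive a second wave of transcription. DUSP1 ends the signal by removing phosphate from MAP kinases. In the uterus, growth factors, oestrogen, stretch and injury are known inducers of these genes.

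RefSeq promoter windows, 250 bases before to 50 bases after the start site on GRCm38.p6, were matched by symbol for 8 of the 10 genes (Fos, Fosb, Jun, Junb, Egr2, Atf3, Nr4a1 and Dusp1). Windows are shown for 4 genes whose levels differed widely between mice. They are written 5′ to 3′ along the gene. Capitals mark matches to TGACGT, letters of the cAMP response element bound by CREB and ATF proteins, or to its variant TGACGC. They also mark the CArG box bound by serum response factor. TGACG followed by another letter was not searched for or marked. Both strands were searched, so a match on the other strand reads ACGTCA or GCGTCA. The windows are Fos at chr12:85473640-85473939 on the plus strand, Egr2 at chr10:67537619-67537918 on the plus strand, Nr4a1 at chr15:101266596-101266895 on the plus strand and Dusp1 at chr17:26508423-26508722 on the minus strand.
Fos: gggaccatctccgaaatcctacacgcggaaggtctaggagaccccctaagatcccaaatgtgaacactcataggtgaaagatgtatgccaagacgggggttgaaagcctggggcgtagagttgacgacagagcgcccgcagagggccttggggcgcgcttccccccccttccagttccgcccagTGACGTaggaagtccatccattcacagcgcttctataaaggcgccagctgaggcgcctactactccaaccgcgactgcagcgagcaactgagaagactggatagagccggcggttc
Egr2: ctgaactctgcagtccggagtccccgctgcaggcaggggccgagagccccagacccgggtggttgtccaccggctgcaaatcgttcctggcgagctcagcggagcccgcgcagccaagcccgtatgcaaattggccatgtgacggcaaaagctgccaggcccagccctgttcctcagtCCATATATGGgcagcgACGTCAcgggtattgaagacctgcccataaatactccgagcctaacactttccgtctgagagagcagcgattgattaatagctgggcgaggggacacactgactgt
Nr4a1: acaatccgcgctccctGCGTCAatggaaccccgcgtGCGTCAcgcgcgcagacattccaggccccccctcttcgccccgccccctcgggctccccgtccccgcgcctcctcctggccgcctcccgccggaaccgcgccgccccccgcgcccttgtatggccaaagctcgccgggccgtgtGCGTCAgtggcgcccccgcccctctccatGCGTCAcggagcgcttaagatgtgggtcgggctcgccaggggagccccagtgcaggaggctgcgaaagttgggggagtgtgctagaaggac
Dusp1: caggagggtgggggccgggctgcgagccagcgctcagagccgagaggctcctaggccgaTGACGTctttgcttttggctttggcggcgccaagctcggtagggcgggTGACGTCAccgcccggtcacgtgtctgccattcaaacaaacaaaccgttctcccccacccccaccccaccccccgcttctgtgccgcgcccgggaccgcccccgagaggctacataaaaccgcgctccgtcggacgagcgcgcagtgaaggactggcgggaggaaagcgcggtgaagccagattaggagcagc

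The Fos window held 1 TGACGT, whose first letter lies at -66 from the start site. In the Egr2 window shown, the first of 3 that hold equal numbers of matches among 5 listed for that gene, a CArG box at -72 stood next to a TGACGT on the other strand at -56. The Nr4a1 window held 4 copies of TGACGC, all on the other strand. Dusp1 held 3 matches to TGACGT, of which 2 overlap within 1 palindromic TGACGTCA. Over the 8 genes with a window, TGACGT was found in 4 (Fos, Egr2, Atf3 and Dusp1) and in 7.51% of all 32851 windows, or 8.37% of 27025 genes. TGACGC was found in a further 3 (Fosb, Junb and Nr4a1) and in 7.40% of all windows, or 8.37% of genes. The CArG box occurred in 1 of the 8 (Egr2) and in 1.63% of windows, or 1.81% of genes, while TGANTCA, the letters of an AP-1 site, occurred in 0 of the 8 and in 7.81% of windows. The Jun window held none of these 4 motifs. The motifs were chosen after the sequences had been seen, and a match describes letters only. Sites more than 250 bases before the start site lie outside the windows, and Egr1 and Ier2 had no window. A missing match therefore does not mean that a gene lacks such a site.

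No member differed between exposed and sham uteri past the threshold. Exposed minus sham differences ran from -0.23 for Egr2 to 0.08 for Egr1 on the log2 scale, 3 above 0 and 7 below, with a median of -0.10 against -0.0005 over all genes. With limma and Benjamini-Hochberg adjustment over all 22206 probe sets, 0 of the 10 passed an adjusted p of 0.05, as did 0% of all probe sets. At an unadjusted p under 0.05, limma called 0 of the 10, where 5.42% of all probe sets were called. The exposed and sham values of all 10 genes overlapped, whereas 2.73% of probe sets had groups that did not overlap. What stood out was 1 sham uterus, labelled sham 1, in which 9 of the 10 genes had their highest level of all 8 mice.

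**Figure D1:**
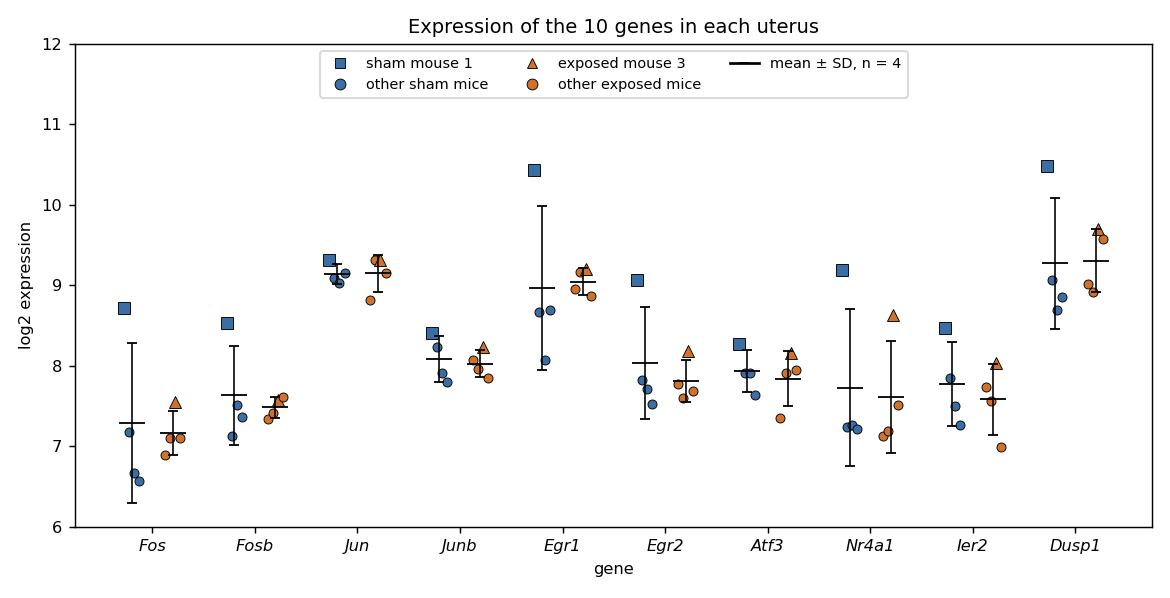
Log2 expression of each gene in each uterus, with sham mice in blue, exposed mice in orange, sham mouse 1 as squares and exposed mouse 3 as triangles; bars are group means ± SD over 4 mice. Sham mouse 1 is the highest of the 8 for every gene except Jun, and sits furthest from the other sham mice for Egr1, Nr4a1 and Fos.

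Among the AP-1 genes, Fos, whose protein pairs with JUN proteins, was measured at 8.72, 7.18, 6.66 and 6.57 in sham mice 1 to 4 and at 6.90, 7.11, 7.55 and 7.10 in exposed mice 1 to 4. Sham 1 was the highest and exposed 3 the next. Sham 2 lay above exposed 1, 2 and 4, while sham 3 and sham 4 lay below all exposed mice. The group means were 7.29 ± 1.00 and 7.16 ± 0.27 (SD, n = 4, sham first), and the difference was -0.12 ± 0.41 (SE), with a 95% interval from -1.02 to 0.78 and a limma adjusted p of 0.971. The interval thus spans from 0.492 to 1.72 times the sham level. Because whole uterus was assayed, fewer cells of a type and less RNA per cell cannot be told apart for any of these genes.

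Fosb, the close relative of Fos, was measured at 8.53, 7.13, 7.51 and 7.37 in sham mice and at 7.34, 7.41, 7.58 and 7.61 in exposed mice. The 4 exposed values lay within 0.3 log2 units of each other and close to those of sham 2, 3 and 4, with sham 1 alone above 8. The means were 7.63 ± 0.62 and 7.48 ± 0.13 (SD, n = 4), and the difference was -0.15 ± 0.25 (SE; limma adjusted p = 0.923).

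Jun, the main partner of FOS proteins, was the steadiest of the set. Its levels were 9.31, 9.09, 9.02 and 9.15 in sham mice and 8.82, 9.31, 9.32 and 9.15 in exposed mice. Sham 1 was here level with exposed 2 and behind exposed 3, and the lowest value was that of exposed 1. Both groups had a mean of 9.15 (SD 0.12 in sham and 0.23 in exposed, n = 4). The difference was 0.0055 ± 0.12 (SE), with a 95% interval from -0.27 to 0.28 (limma adjusted p = 0.997).

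Junb, a JUN family protein that is a weaker activator than JUN, was measured at 8.41, 8.23, 7.91 and 7.80 in sham mice and at 8.07, 7.96, 8.24 and 7.84 in exposed mice. The groups interleaved, with sham 1 at the top and sham 4 at the bottom. The difference was -0.06 ± 0.15 (SE), with a 95% interval from -0.39 to 0.27 (limma adjusted p = 0.953). Atf3, a stress-induced partner of JUN that can repress, was measured at 8.27, 7.91, 7.91 and 7.64 in sham mice and at 7.35, 7.91, 8.16 and 7.94 in exposed mice. Exposed 1 was the lowest of the 8 mice for Atf3, and its difference was -0.09 ± 0.18 (SE; limma adjusted p = 0.937).

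Of the zinc finger factors, Egr1 is induced by growth factors and by oestrogen in uterus. It was measured at 10.43, 8.67, 8.08 and 8.69 in sham mice and at 8.96, 9.17, 9.20 and 8.86 in exposed mice. Exposed values were tightly grouped and lay between sham 1, which was above all of them, and the other sham mice, which were all below them. The means were 8.97 ± 1.02 and 9.05 ± 0.16 (SD, n = 4), and the difference was 0.08 ± 0.40 (SE), with a 95% interval from -0.82 to 0.98 (limma adjusted p = 0.984).

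Egr2, whose protein binds the same kind of GC-rich site, was measured at 9.07, 7.82, 7.72 and 7.53 in sham mice and at 7.77, 7.60, 8.18 and 7.68 in exposed mice. Sham 1 was again highest and exposed 3 next, with the remaining mice within 0.3 of each other. The difference, -0.23 ± 0.30 (SE), was the most negative of the 10, with a 95% interval from -0.89 to 0.44 (limma adjusted p = 0.896).

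Nr4a1, the orphan receptor also called NUR77, showed the clearest split between single mice. It was measured at 9.19, 7.24, 7.26 and 7.22 in sham mice and at 7.13, 7.19, 8.63 and 7.51 in exposed mice. Sham 2, 3 and 4 agreed to an SD of 0.0244 while sham 1 stood 1.95 above their mean, and exposed 3 stood 1.35 above the mean of the other exposed mice. The difference between groups was -0.11 ± 0.47 (SE), the least precise of the 10, with a 95% interval from -1.15 to 0.93 (limma adjusted p = 0.978).

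Of the companions, Ier2, a small nuclear protein induced by growth factors, was measured at 8.47, 7.85, 7.50 and 7.26 in sham mice and at 7.74, 7.56, 8.04 and 6.99 in exposed mice. Exposed 4 was the lowest and sham 1 the highest, and the difference was -0.19 ± 0.27 (SE; limma adjusted p = 0.909). Dusp1, the MAP kinase phosphatase that glucocorticoids also induce, was measured at 10.48, 9.07, 8.69 and 8.86 in sham mice and at 9.02, 8.92, 9.70 and 9.58 in exposed mice. For Dusp1 exposed 3 and exposed 4 both lay above sham 2, 3 and 4, and sham 1 lay above all. The means were 9.27 ± 0.82 and 9.31 ± 0.39 (SD, n = 4), and the difference was 0.03 ± 0.36 (SE; limma adjusted p = 0.991).

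The spread between mice was wide for most of the set. The SD over the 8 mice exceeded that of 99.2% of genes for Nr4a1, 98.8% for Fos and Egr1, 98.2% for Dusp1, 97.0% for Egr2, 96.2% for Ier2 and 95.2% for Fosb. Atf3 followed at 86.3% and Junb at 70.5%, while Jun lay mid-range at 50.8%. The sham SD was larger than the exposed SD for 8 of the 10 genes, where this held for 34% of all genes. With sham 1 left out, the SD of the remaining 3 sham mice was larger than the exposed SD for 4 of the 10, near the 33.9% of all genes.

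Sham 1 was measured above the mean of the other 3 sham mice for each of the 10 genes. The gap was 1.95 log2 units for Egr1 (3.87-fold) and for Nr4a1 (3.86-fold), 1.92 for Fos (3.78-fold), 1.61 for Dusp1 (3.04-fold), 1.38 for Egr2 (2.60-fold) and 1.19 for Fosb (2.29-fold). It was smaller for Ier2 (0.93), Atf3 (0.45), Junb (0.43) and Jun (0.22). Over all genes the central 95% of such gaps ran from -0.369 to 0.411, so 9 of the 10 lay above that range and Jun inside it. Sham 1 was the highest mouse for 7.92% of all genes. A gap of more than 1 log2 unit upward was found for 0.164% of all genes, 32 in number, of which 6 were members. These values describe 1 mouse, and no test was made on them.

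**Figure D2:**
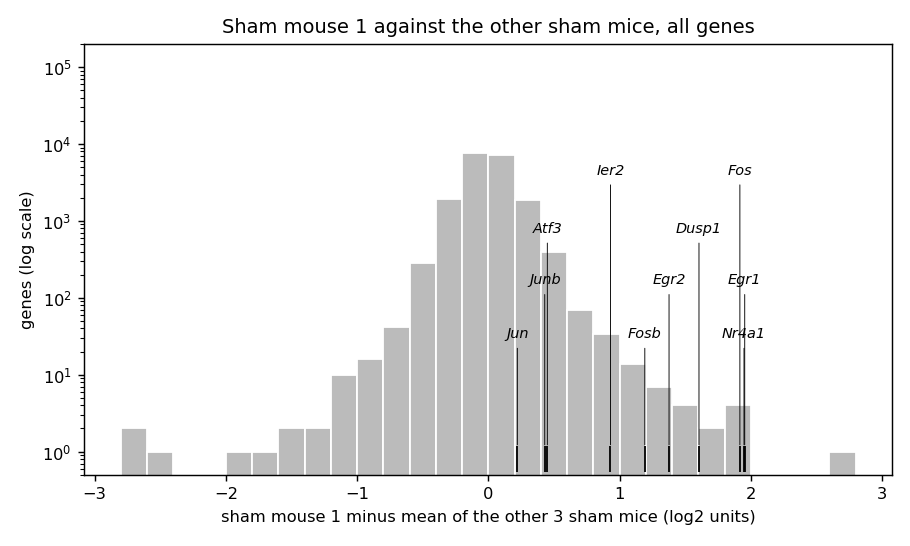
Histogram over 19505 genes of the log2 level in sham mouse 1 minus the mean of the other 3 sham mice, with the number of genes on a log axis and the 10 genes marked by lines. Most genes lie close to 0, while Egr1, Nr4a1, Fos, Dusp1, Egr2 and Fosb lie beyond 1 log2 unit.

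Of the other 26 genes past that gap, 9 belonged to the lists of related genes. They were Nr4a3 (2.65) and Nr4a2 (1.25), the remaining NR4A receptors; Ccn1 (1.99) and Ccn2 (1.09), matricellular proteins; Sik1 (1.28), a kinase induced by cAMP; Plk2 (1.19), a polo-like kinase; Cebpd (1.14), a leucine zipper factor; Errfi1 (1.11), an inhibitor of EGF receptors; and Ier3 (1.07). The remaining 17 were in no list, among them Gfpt2 (1.63), an enzyme of hexosamine synthesis, and Slc2a3 (1.54), a glucose transporter. Thbs1 (1.18), a matricellular protein, and Has2 (1.09), which makes hyaluronan, were also among them. These 4 were named after their values had been seen. Cyp3a59 (1.58), Cyp3a25 (1.58) and Spink1 (1.57) had larger gaps than Slc2a3. Such a gap need not mean that sham 1 stood alone. Slc2a3 was measured at 10.70, 10.40, 9.79 and 7.31 in sham mice 1 to 4. Gfpt2 was measured at 9.26 in sham 1 and 9.15 in exposed 4. A gap of more than 1 log2 unit downward was found for 19 genes, 0 of them members. Over the array as a whole, sham 1 did not stand apart, with a mean correlation of 0.987 with the other arrays over all genes, where the 8 arrays ranged from 0.977 to 0.987.

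Marker genes gave the following beside the pattern of sham 1. Smooth muscle, epithelial and stromal markers were all bright, with list means over mice of 11.0 to 11.9, 8.35 to 9.19 and 10.1 to 10.5. The endothelial list (5 of 5 measured: Pecam1, Cdh5, Kdr, Tie1 and Emcn) had its highest mean in sham 1, at 9.52, with 8.80 to 9.36 in the other sham mice and 9.09 to 9.49 in exposed mice, and sham 1 was highest for 3 of the 5. The mesothelial list (4 of 4 measured) was also highest in sham 1, at 7.70, where the sham range was 7.47 to 7.70 and the exposed range 7.55 to 7.69. The list means of smooth muscle (6 of 6 measured), epithelial (7 of 7), stromal (5 of 6), macrophage (4 of 5), neutrophil (4 of 5), lymphocyte (5 of 6), adipocyte (4 of 5), ovary and oviduct (4 of 5) and erythrocyte (1 of 5) markers were not highest in sham 1, although 2 single smooth muscle markers, 1 epithelial marker and 1 neutrophil marker were. Their part in the pattern was not tested.

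Exposed 3 resembled sham 1 at a smaller size. It was among the 2 highest mice for 9 of the 10 genes, with Fosb the exception, where this held for 21.5% of all genes. Exposed 3 was singled out for its high mean over these same genes, so that rank follows in part from the choice and is no test. Averaged over the 10 genes, the log2 level was 9.09 in sham 1 and 8.46 in exposed 3, while the other 6 mice lay between 7.81 and 8.03. By this mean the exposed and the sham group each held 1 mouse above the rest. For single genes exposed 3 was not always apart. Exposed 2 was close to it for Egr1 (9.17 against 9.20) and Jun (9.31 against 9.32), and exposed 4 for Dusp1 (9.58 against 9.70).

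**Figure D3:**
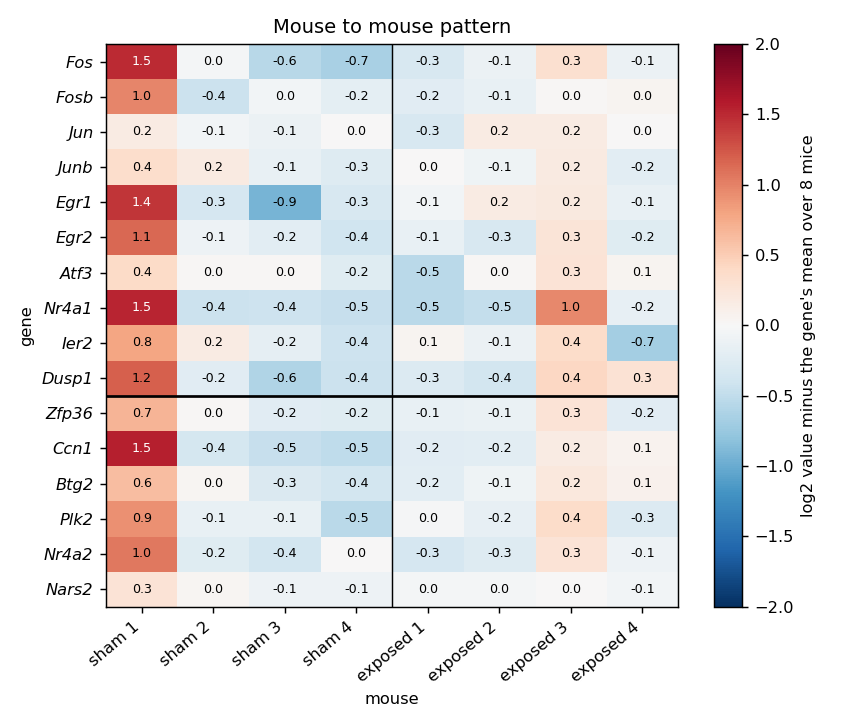
Log2 value of each gene minus its mean over 8 mice (colour scale and printed values), for the 10 genes above the line and, below it, the 6 genes whose pattern was most like their mean; columns are mice. The column of sham mouse 1 is positive throughout, and that of exposed mouse 3 is positive or near 0.

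Sham 1 was singled out for its high values of these same genes. Since it lay above the mean of the other sham mice for each, leaving it out had to raise every difference. The values without it describe the data and are no independent test. With sham 1 left out, 7 differences changed sign and all 10 lay above 0, with a median of 0.13 against -0.0025 over all genes. Egr1 then stood 0.57 ± 0.17 (SE) higher in exposed uteri, 1.48-fold, with a 95% interval from 0.19 to 0.95, an unadjusted limma p of 0.00823 and an adjusted p of 0.946. All 4 exposed values of Egr1 were above the 3 sham values, an arrangement found for 2.56% of probe sets. Egr1 was the only member with an unadjusted p under 0.05 without sham 1, where 4.04% of probe sets had one, and 0 of the 10 passed adjustment.

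The next differences without sham 1 were those of Dusp1, at 0.43 ± 0.21 (SE; limma unadjusted p = 0.0642), Nr4a1, at 0.38 ± 0.32, and Fos, at 0.36 ± 0.19 (limma unadjusted p = 0.0925). The remaining 6 ranged from 0.02 for Atf3 to 0.15 for Fosb. With exposed 3 left out as well, a setting chosen after the values were seen, the median of the 10 was 0.02 and Egr1 stood at 0.52 ± 0.18 (SE; limma unadjusted p = 0.0237, adjusted p = 0.865). The genes whose sign changed without sham 1 were Fos, Fosb, Junb, Egr2, Atf3, Nr4a1 and Ier2.

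**Figure D4:**
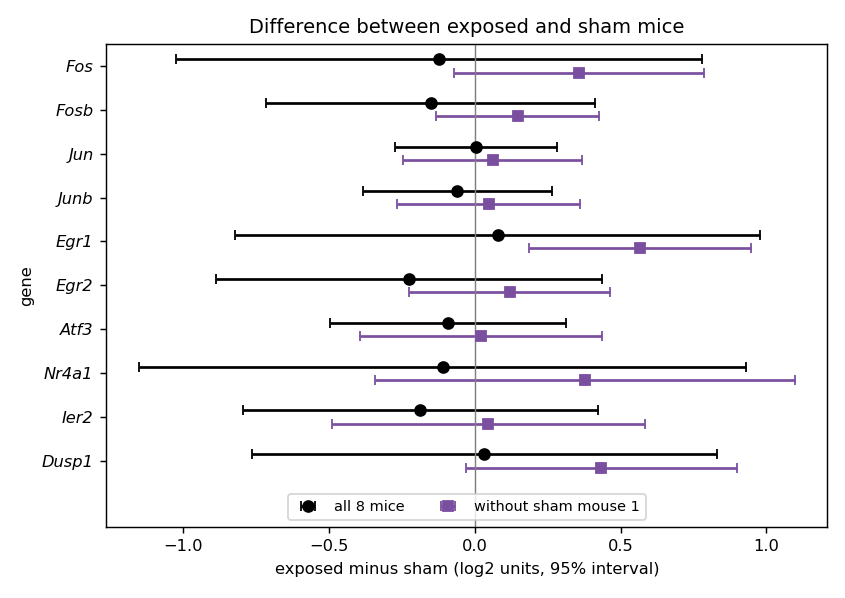
Exposed minus sham difference of each gene in log2 units with its 95% interval from limma, over all 8 mice (black circles) and without sham mouse 1 (purple squares). All intervals over 8 mice include 0, and without sham mouse 1 that of Egr1, from 0.19 to 0.95, does not.

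Levels of the 10 genes varied together from mouse to mouse. Over 8 mice, all 45 pairs of members had a Pearson r above 0, with a median of 0.740 and a range from 0.290 to 0.959; without sham 1 it was 43 of 45, with a median of 0.472 and a range from -0.363 to 0.914. By Pearson r, Fos was followed most closely by Egr2 (r = 0.959, rho = 0.786), Dusp1 (r = 0.934, rho = 0.857), Egr1 (r = 0.921, rho = 0.690) and Nr4a1 (r = 0.905, rho = 0.595). Fosb (r = 0.857, rho = 0.405), Junb (r = 0.836, rho = 0.881), Ier2 (r = 0.799, rho = 0.810), Atf3 (r = 0.716, rho = 0.690) and Jun (r = 0.558, rho = 0.587) had a smaller r, although by rho Junb stood first and Ier2 above Egr2.

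By exact two-sided permutation of pairings, adjusted over these 9 relations, r passed 0.05 for 6 genes: Egr2, Junb and Dusp1 (adjusted p = 0.0112 each), Egr1 and Nr4a1 (0.0113 each) and Ier2 (0.0243). The unadjusted exact p was 0.00315 for Egr2, 0.00151 for Dusp1 and 0.0471 for Fosb. By rho, Junb and Dusp1 passed, with an adjusted exact p of 0.0482 each. Without sham 1 and sham 4, the mice farthest from the median of Fos, r ranged from 0.0949 for Fosb to 0.804 for Dusp1, and 0 of 9 passed the adjusted permutation test; 1, Dusp1, had an unadjusted exact p under 0.05, at 0.0389. Leaving out the extremes of Fos also narrowed its range and left 6 mice, and r was still 0.783 for Nr4a1, 0.748 for Egr1 and 0.704 for Egr2. The calls were thus lost without those mice, and r was smaller for these genes. Their rho was then 0.371 for Nr4a1, 0.6 for Egr1 and 0.486 for Egr2. Centred within each exposure group, 7 of the 9 passed.

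Genes outside the set were ranked by the Pearson correlation of their log2 level with the mean of the 10 over the 8 mice. The 6 highest were Zfp36 (r = 0.974), an mRNA decay factor, Ccn1 (r = 0.965), Btg2 (r = 0.949), an antiproliferative factor, Plk2 (r = 0.946), Nr4a2 (r = 0.944) and Nars2 (r = 0.941), a mitochondrial asparaginyl tRNA synthetase. Of these, 5 were in the lists of related genes and Nars2 was in none. Without sham 1 the r of Zfp36 was 0.905, of Btg2 0.878, of Ccn1 0.838, of Plk2 0.823, of Nr4a2 0.732 and of Nars2 0.698, over 7 mice. All 16 genes share the same arrays, so these values are a description.

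Related genes were followed in 5 lists, with 101 of 113 listed genes measured. With limma, 0 of the 101 passed the adjusted threshold, and 5 had an unadjusted p under 0.05, a share near the 5.42% over all probe sets. All 5 were lower in exposed uteri, where 581 of all genes were higher and 504 lower at that limma p. Over all genes, 9722 differences lay above 0 and 9783 below. Sham 1 was the highest mouse for 36 of the 101, where it was for 7.92% of all genes.

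Of 16 measured relatives in the AP-1, EGR and NR4A families (17 listed), 5 had a difference above 0 and 11 below, with a median of -0.03, or 0.0030 without sham 1, and sham 1 was highest in 4. Jund, the JUN family member that is expressed without a stimulus in most tissues, was measured at 9.84, 9.93, 9.69 and 9.52 in sham mice and at 9.13, 9.18, 9.64 and 9.14 in exposed mice. Exposed 3 lay among the sham mice and the other exposed mice below all of them. The difference was -0.47 ± 0.14 (SE; limma unadjusted p = 0.00662, adjusted p = 0.838), and it was -0.44 ± 0.16 without sham 1. Batf, an AP-1 factor of lymphocytes, differed by 0.24 ± 0.12 (limma adjusted p = 0.838).

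Nr4a3, the third NR4A receptor, had the widest range of any gene named here. It was measured at 9.92, 8.69, 6.83 and 6.28 in sham mice and at 6.42, 5.70, 8.53 and 6.31 in exposed mice. Sham 1, sham 2 and exposed 3 were high and the other 5 mice low, and the difference was -1.19 ± 0.81 (SE; limma adjusted p = 0.841), or -0.53 without sham 1.

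Of 40 other rapidly induced genes, 14 had a difference above 0 and 26 below, with a median of -0.04, or 0.04 without sham 1. Sham 1 was highest in 18 of them, 45%. Ptgs2, the inducible cyclooxygenase, differed by -0.87 ± 0.25 (SE; limma unadjusted p = 0.0062) and by -0.73 without sham 1, with 6.97, 6.04, 6.28 and 6.99 in sham mice and 6.11, 5.39, 5.96 and 5.35 in exposed mice. Exposed 1 lay above sham 2, so the groups overlapped. Ier5 differed by -0.31 ± 0.14 (limma unadjusted p = 0.0484) and Csrnp1, a nuclear factor, by -0.44 ± 0.21; the adjusted p was 0.838 for all 3.

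Of 15 MAP kinase phosphatases and feedback inhibitors, which with Dusp1 end the signal, 6 had a difference above 0 and 9 below, with a median of -0.13, or -0.02 without sham 1. Limma called 0 of them even at an unadjusted p under 0.05, and sham 1 was highest in 5. The smallest p-values were those of Dusp14 (-0.28 ± 0.13), Dusp8 (-0.38 ± 0.22) and Spry2, a receptor tyrosine kinase inhibitor (0.26 ± 0.16). Of 19 measured upstream kinases and transcription factors (27 listed), 10 had a difference above 0 and 9 below, with a median of 0.01, and limma called 0 at an unadjusted p under 0.05. Map2k2, the MEK2 kinase, differed by -0.17 ± 0.09, Crebbp, the CREB coactivator, by 0.17 ± 0.10, and Mrtfb, a coactivator of serum response factor, by 0.16 ± 0.10.

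Heat shock genes, most of which are induced by stress through another factor, HSF1, were followed for contrast. Of 11 measured (14 listed), 1 had a difference above 0 and 10 below, with a median of -0.19 with and without sham 1. Over all genes 9722 lay above 0 and 9783 below. The genes of a list were measured in the same mice, so such a count is no test of direction. Sham 1 was highest in 3 of the 11. Hsph1, an HSP110 chaperone, differed by -0.75 ± 0.27 (SE; limma unadjusted p = 0.0210), Hspd1, the mitochondrial HSP60, by -0.47 ± 0.18 (limma unadjusted p = 0.0234) and Dnajb1, the HSP40 chaperone, by -0.21 ± 0.10, each with an adjusted p of 0.838. Hsph1 was measured at 10.09, 9.59, 9.89 and 9.34 in sham mice and at 9.60, 8.55, 9.37 and 8.38 in exposed mice. Sham 1 was the highest for Hsph1 too, and exposed 2 and exposed 4 were the lowest.

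**Figure D5:**
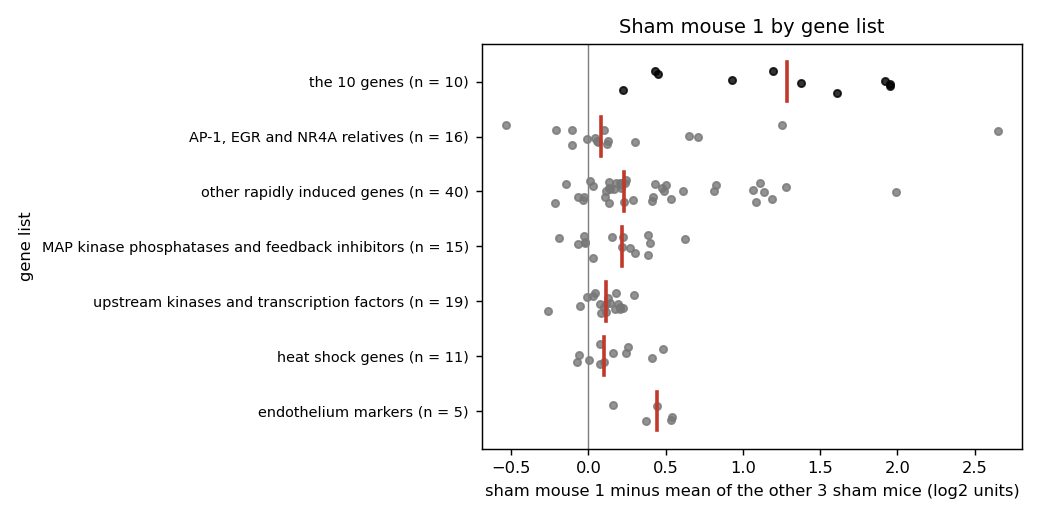
Log2 level in sham mouse 1 minus the mean of the other 3 sham mice for each measured gene (points) of the 10 genes, the 5 lists of related genes and the endothelial markers, with the median of each list as a red bar. The 10 genes have a median of 1.28, and the medians of the related lists run from 0.08 to 0.23, while that of the endothelial markers is 0.44. The endothelial list is the only marker list shown and has the largest median of the marker lists. Medians of the other marker lists run from -0.26 for epithelial to 0.16 for smooth muscle markers.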

How the data were processed

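Total RNA of each uterus was labelled with biotin and hybridised to 1 array per mouse, per the labels' protocols. The deposited table holds log2 values for 22206 probe sets on 8 arrays. Partek is named without a version per the submitters' processing notes; the sources used here state neither the background correction and scaling nor a genome build. That the scale is log2 was inferred from the deposited values, whose maximum is 13.6. Sorted values of the 8 arrays differed by at most 0.0198, so no further normalization was applied; a shift shared by all genes would be set to 0 by such scaling. Signal over background and batch could not be assessed.

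Symbols came from the platform annotation: 19572 probe sets had 1 symbol, 0 several and 2634 none. The probe set of highest mean was kept for the 55 symbols on more than 1. Groups were taken from the stated treatment and compared two-sided by lmFit and eBayes of limma 3.58.1 (R 4.3.3) on all probe sets, with Benjamini-Hochberg adjustment over them; the step was tested on simulated data. A fold is 2 raised to the log2 difference. Named were the 10 members, the 3 genes of smallest p in each related list and the 6 genes most correlated with the mean of the members (predicted genes, olfactory and vomeronasal receptors left out). The members and lists were chosen with earlier results of these data known.

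Alternatives were other normalizations, removal of probe sets under the 25th or the 50th percentile of the mean, other eBayes settings, array weights, a block for the replicate number, and leaving out each mouse.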

Additional observations from a re-analysis of the deposited data

Results flagged for a closer look

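Among the genes named, 4 of 62 groups of 4 mice (31 genes) held 1 mouse far from the other 3 by Dixon's criterion, where chance gives about 1 in 20. The genes were partly chosen by their values and share the same mice, so the count is no test against chance. Nr4a1 in sham mouse 1 was measured at 9.19, with 7.22 to 7.26 in the other sham mice. Ccn1 in the same mouse was measured at 10.5, with 8.41 to 8.57 in the other sham mice. Ccn1 entered this check only through its correlation with the mean of the members, which was highest in sham mouse 1. Its flag was thus favoured by that choice. Jund in exposed mouse 3 was measured at 9.64, with 9.13 to 9.18 in the other exposed mice, which put it among the sham values. Batf in exposed mouse 4 was measured at 8.53, with 8.08 to 8.14 in the other exposed mice.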

How the results depend on the processing

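Of the member differences under all alternatives, 151 kept their sign and 29 changed it, and 0 passed adjustment. Many of the 151 could not have changed. The other normalizations, filters, eBayes settings, replicate block and averaging of probe sets left member differences the same or nearly so. All 29 changes came with array weights or with mice left out. Array weights turned Egr1 to -0.033 and Dusp1 to -0.066. Leaving out sham 1 and exposed 3 together, chosen after seeing the data, turned Fos to 0.23, Fosb to 0.12 and Nr4a1 to 0.039 and gave 1 member an unadjusted p under 0.05. Leaving out 1 mouse at a time gave ranges of -0.36 to 0.36 for Fos, -0.32 to 0.15 for Fosb, -0.050 to 0.11 for Jun, -0.16 to 0.048 for Junb, -0.22 to 0.57 for Egr1, -0.39 to 0.12 for Egr2, -0.20 to 0.071 for Atf3, -0.45 to 0.38 for Nr4a1, -0.36 to 0.046 for Ier2 and -0.16 to 0.43 for Dusp1. The upper end came without sham 1 for all of these except Jun and Atf3. Members with an unadjusted p under 0.05 then numbered 0 to 1, related genes 2 (without exposed 2) to 17 (without exposed 1), and probe sets 726 (without sham 2) to 2545 (without exposed 1). Probe sets past adjustment numbered 0 to 1, the 1 without exposed 1. A filter at the 50th percentile gave 796 probe sets at an unadjusted p under 0.05, from fewer probe sets tested. With the replicate number as a block, related genes at that p numbered 8, against 5, and probe sets 1274; the cause was not tested. Deviations from the group means correlated between same-numbered mice at 0.08, -0.24, 0.08 and 0.08 over all probe sets. These few values show no clear pairing but cannot exclude one. Relations of Fos past adjustment numbered 0 without the 2 farthest mice and 0 without sham 1, against 6. Precision is limited by having 4 mice per group.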
